A study of Mus musculus with 7 samples.

Results

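The comparison set 5 libraries of induced neural stem cells (iNSC) against 1 library of control neural stem cells (cNSC), all from mouse and measured by RNA sequencing. Genes were chosen when all 5 iNSC libraries lay 2-fold or more on the same side of the cNSC library on the log2(FPKM + 1) scale. FPKM is fragments per kilobase of transcript, scaled for library size, so levels can be compared between genes. In addition, every library of the higher side had to reach 5 FPKM. Of 24354 gene symbols, 13042 reached 1 FPKM in at least 1 of the 7 libraries of the series. The rule chose 360 of them, 94 higher and 266 lower in the iNSC libraries. These are 0.721% (higher) and 2.04% (lower) of the genes tested. They are 1.23% of the 7652 genes with 5 FPKM in every iNSC library and 2.94% of the 9039 genes with 5 FPKM in the cNSC library.

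Per the labels, the cNSC library came from brain of OG2/ROSA26 embryos at embryonic day 13.5, and the protocol names cerebral cortex as the source. The iNSC lines started as fibroblasts of day 13.5 embryos from which the head, the internal organs and the spinal cord had been removed. These fibroblasts were infected with lentivirus or retrovirus and grown in neural stem cell medium. The lines pOKSM, pBKSM, mcBKSM clone 1 and mcBKSM clone 3 are of strain C57BL/6-Pou5f1 x 129X1/SvJ and carry Oct4-CreER with Rosa26-loxSTOPlox-EYFP, in which Cre switches on a yellow fluorescent protein. The DTA line carries Oct4-CreER with Rosa26-loxSTOPlox-DTA, in which Cre switches on diphtheria toxin A, and its strain is given as unknown. A further library came from embryonic fibroblasts (MEF) of the same strain and genotype as the first 4 lines. No group shares all of strain, genotype, source tissue and infection with the cNSC library, so these cannot be told apart in any difference given here. Each library holds RNA pooled from 2 to 3 biological replicates. The 2 mcBKSM libraries are clones under 1 label, and the 5 lines are not repeats of each other.

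Neural stem cells of the embryonic brain are radial glia, which divide, give rise to neurons and later give rise to astrocytes. They carry nestin and SOX2, and patterning transcription factors record the region that they come from. In culture with growth factors they can also take on astrocyte genes such as Gfap, and cytokines of the interleukin 6 family drive these genes through the receptor chain gp130 and the transcription factor STAT3. Fibroblast reprogramming with Klf4, Sox2, Myc and a POU factor can produce cells that divide as neural stem cells do.

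Markers were used to check the labels. The 6 neural stem cell markers were all above 1 FPKM in the cNSC library, and their summed level was 2342 FPKM there, 1026 to 5607 FPKM in the iNSC libraries and 9.90 FPKM in MEF. The summed level of 6 fibroblast markers was 0.834 FPKM in cNSC, 1.55 to 9.13 in the lines and 1266 in MEF. Wider lists separated the libraries less. A list of 29 neural stem cell and radial glia genes summed to 8026 FPKM in cNSC, 4150 to 8419 in the lines and 2468 in MEF. A list of 38 fibroblast genes summed to 1028 FPKM in cNSC, 536 to 1034 in the lines and 7036 in MEF. Several regional genes did not follow the cortical source. The cortical transcription factor gene Emx1 was listed at 0 in cNSC, and the related Emx2 was 0.0251 FPKM. The midbrain and hindbrain gene En2 was 22.2 FPKM in cNSC, Gbx2 was 11.5, Irx1 was 14.97 and Hoxa5 was 14.1. These genes were picked from longer lists. The sum of 33 forebrain genes was 101 FPKM in cNSC and 106 to 140 in the lines. That of 20 midbrain and hindbrain genes was 141 in cNSC and 47.3 to 107 in the lines. Of 39 Hox genes, 32 were listed at 0 in cNSC. The strain label of cNSC names female mice without saying whether these are the embryos or their mothers. The Y-linked genes Eif2s3y (48.2 FPKM), Ddx3y (16.4) and Kdm5d (9.68) were found in cNSC, while Xist, the X-inactivation RNA, was 0.0343. For these reasons the library is called cNSC and not cortical below. Depth, estimated from the step between low values, was 10.85 to 16.15 per library in units of 1e6 fragments, so that 3 fragments on a 2 kb transcript correspond to 0.0929 to 0.138 FPKM. This floor covers counting error only.

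The size of each difference was set against the spread between lines with limma, fitted to all 13042 genes with the classes iNSC, cNSC and MEF. Because cNSC has 1 library, the test assumes that it varies like the iNSC lines. Genes at the floor in every line hardly vary there. Their small p-values assume an equally small spread for a cNSC level far above the floor. Limma called 27 genes higher (0.207%) and 125 lower (0.958%) at a Benjamini-Hochberg adjusted p under 0.05. Of the chosen genes, 19 of 94 higher and 60 of 266 lower ones were among these. The p-values rest on the same values that chose the genes, so for chosen genes they describe size against spread and are no independent support. Below, "rose" and "fell" are used for genes that limma called, and "chosen" for genes that met the 2-fold rule. Differences are iNSC minus cNSC in log2(FPKM + 1), with SE, and this scale understates changes of low genes. Means over the lines are given in FPKM ± SD, n = 5.

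**Figure D1:**
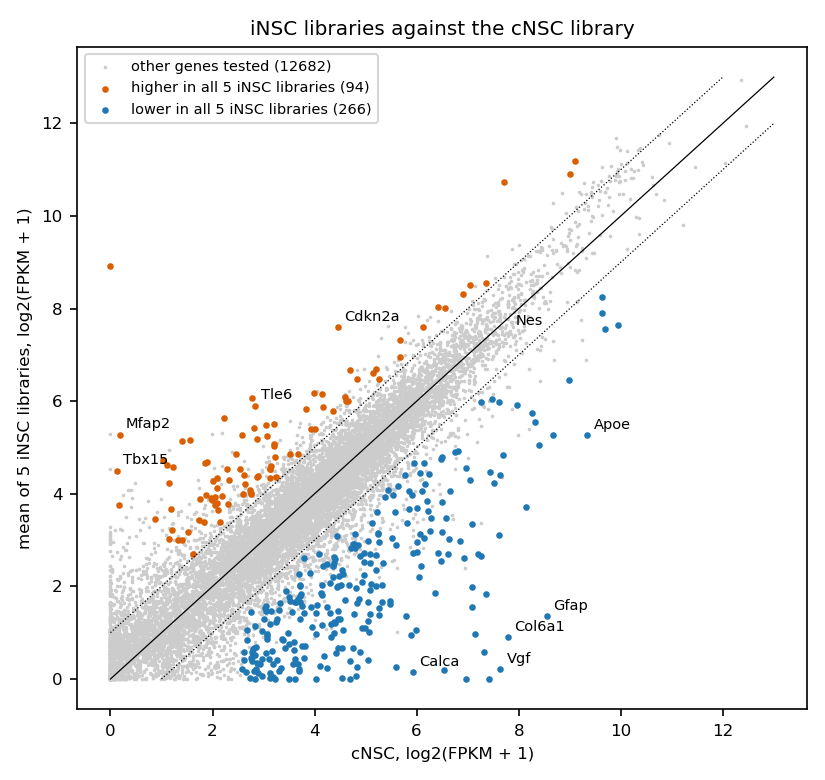
Each point is 1 of 13042 genes, with the cNSC level on the x axis and the mean of 5 iNSC libraries on the y axis, both as log2(FPKM + 1). Dotted lines mark 2-fold. The 266 genes lower in all 5 lines reach much further from the diagonal than the 94 higher ones, with median differences of -2.62 and 1.80.

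Most genes that were past 2-fold in some line were not past it in all. Among 10245 genes with at least 5 FPKM in a library, 622 were 2-fold or more above cNSC in just 1 line and 115 in all 5, of which 94 also had 5 FPKM in every line. On the lower side 530 genes were past 2-fold in 1 line and 266 in all 5. Line by line, the DTA line had the fewest such genes, with 481 higher and 576 lower, and mcBKSM clone 3 had the most, with 1089 and 1453. DTA was also the line nearest to cNSC for 136 of the 266 lower genes (51.1%) and 42 of the 94 higher genes (44.7%), against 40.0% of all genes tested. Without DTA the rule would choose 271 higher and 529 lower genes, so this line sets the size of both lists more than any other.

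**Figure D2:**
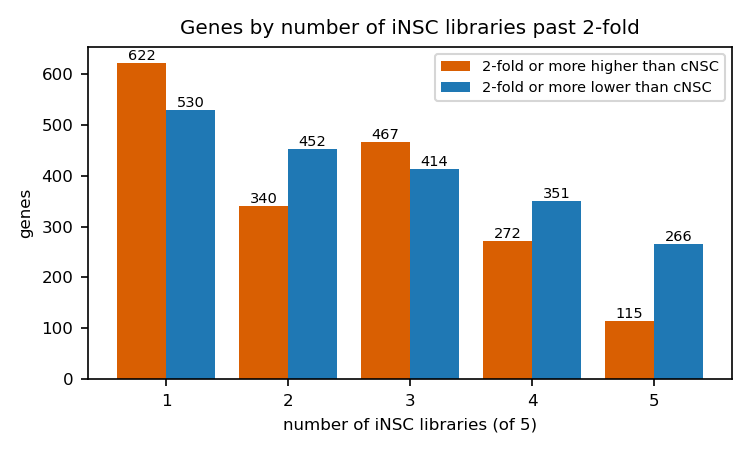
Bars count genes by the number of iNSC libraries that lay 2-fold or more above (orange) or below (blue) the cNSC library, among genes with at least 5 FPKM in a library. All 5 lines were past 2-fold for 115 genes above and 266 below.

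Lower genes also varied more between the lines. The median range over the 5 lines was 1.38 on the log2(FPKM + 1) scale for lower genes, 0.84 for higher genes and 0.77 for all genes tested. In 99 of the 266 lower genes the mean difference was 3 or more in size, against 15 of the 94 higher genes. Under 1 FPKM in every line were 42 of the lower genes, and 7 of these were listed at 0 in every line.

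The largest fall was in a secreted neuropeptide precursor. Vgf was at 199 FPKM in cNSC, and at 0.0334 in pOKSM, 0.0723 in pBKSM, 0.338 in mcBKSM clone 1, 0.341 in mcBKSM clone 3 and 0.0735 in DTA. All 5 lines were close to or little above the floor, and MEF was at 0.565 FPKM (log2 difference -7.42 ± 0.23, SE, adjusted p = 0.000269). Calca, which encodes calcitonin and calcitonin gene-related peptide, was at 60.1 FPKM in cNSC, 0.194 in pOKSM, 0.122 in pBKSM, 0.245 in mcBKSM clone 1 and listed at 0 in mcBKSM clone 3 and DTA (log2 difference -5.79 ± 0.19, SE, adjusted p = 0.000274). Scg2, encoding a granin that is stored in dense-core vesicles and cut into peptides, was at 8.94 FPKM in cNSC and at 0.0372 in pBKSM, 0.0290 in mcBKSM clone 1, 0.0956 in mcBKSM clone 3, 0.504 in DTA and listed at 0 in pOKSM (log2 difference -3.15 ± 0.25, SE, adjusted p = 0.00670). Here DTA was the only line clearly above the floor. Scg3, a granin that helps to sort others into these vesicles, was also chosen, at 16.7 FPKM in cNSC and from 0.110 in mcBKSM clone 3 to 4.36 in DTA, without passing the test (adjusted p = 0.296). Of 14 tested neuropeptide and granin genes, 4 were chosen as lower and 0 as higher, and 4 fell and 0 rose. The fourth gene that fell was the galanin gene Gal, singled out after its value was known, at 1.74 FPKM in cNSC and listed at 0 in all 5 lines. The median difference over the 14 genes was -1.74, beside 0.0049 over all genes tested. In libraries from bulk cultures, fewer cells of a type and less RNA per cell cannot be told apart. The call of Scg2 ended with a pseudocount of 0.1 (adjusted p = 0.116), while those of Vgf and Calca held in every alternative checked for them (highest adjusted p = 0.0160 and 0.0248). Single genes were not checked in the fits without MEF or without a filter.

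**Figure D3:**
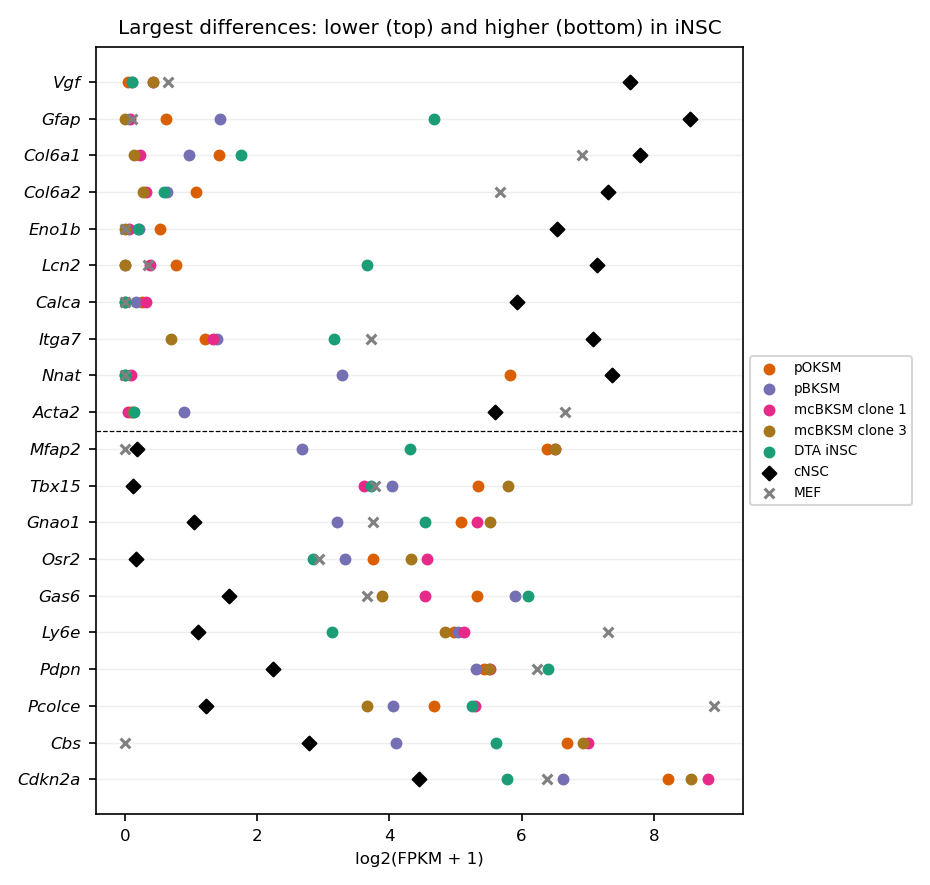
Levels of the 10 chosen genes with the largest mean difference in each direction, as log2(FPKM + 1) on the x axis, with 1 symbol per library. For each lower gene (upper rows) the cNSC diamond lies to the right of all 5 line circles, and for each higher gene (lower rows) to their left. Gfap and Nnat show the widest spread between lines among the lower genes.

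Collagens of the pericellular matrix and basement membrane were another group. Col6a1 (chromosome 10, 76708792 to 76726168, build mm10) and Col6a2 encode chains of collagen VI, which forms beaded filaments around cells. Col6a1 was at 221 FPKM in cNSC and 119 in MEF, and at 1.69 in pOKSM, 0.949 in pBKSM, 0.176 in mcBKSM clone 1, 0.0969 in mcBKSM clone 3 and 2.38 in DTA (log2 difference -6.89 ± 0.69, SE, adjusted p = 0.0141). Col6a2 was at 158 FPKM in cNSC and 49.9 in MEF, and at 1.09 in pOKSM, 0.556 in pBKSM, 0.245 in mcBKSM clone 1, 0.207 in mcBKSM clone 3 and 0.508 in DTA (log2 difference -6.74 ± 0.35, SE, adjusted p = 0.00150). Both genes were thus high in the fibroblast library and in cNSC, and at or under 2.38 FPKM in every line made from fibroblasts. The third chain gene, Col6a3, also fell (log2 difference -2.06 ± 0.15, SE, adjusted p = 0.00476) but was at 3.27 FPKM in cNSC, under the 5 FPKM of the rule, and at 79.2 in MEF.

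The basement membrane collagen genes Col4a5 and Col4a6, which are neighbours on chromosome X, were both chosen. Col4a6 was at 31.9 FPKM in cNSC, at 0.478 in pOKSM, 0.597 in pBKSM, 0.403 in mcBKSM clone 1, 0.114 in mcBKSM clone 3 and 0.126 in DTA and at 0.0849 in MEF (log2 difference -4.63 ± 0.26, SE, adjusted p = 0.00190). Col4a5, singled out after its value was known, was at 63.7 FPKM in cNSC and from 4.08 in mcBKSM clone 3 to 14.8 in DTA in the lines, without passing (adjusted p = 0.116). Col18a1, the precursor of endostatin, fell from 29.3 FPKM to 1.18 ± 0.369 over the lines (log2 difference -3.81 ± 0.29, SE, adjusted p = 0.00587). Of 25 tested collagen genes 5 were chosen as lower and 0 as higher, 5 fell and 0 rose, and the median difference was -0.012, so a typical collagen gene differed little. Without DTA 2 collagen genes would be chosen as higher. The call of Col6a1 ended without pOKSM (adjusted p = 0.0633), without mcBKSM clone 1 (0.0503) and with a pseudocount of 0.1 (0.129). That of Col6a3 ended without pOKSM (0.0577), and that of Col4a6 with a pseudocount of 0.1 (0.0527).

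Receptors for this matrix were among the chosen genes too. Itga7, the laminin receptor chain integrin alpha 7, was at 134 FPKM in cNSC and at 1.32 in pOKSM, 1.63 in pBKSM, 1.51 in mcBKSM clone 1, 0.613 in mcBKSM clone 3 and 7.97 in DTA. DTA was the highest line, well below cNSC (log2 difference -5.52 ± 0.89, SE), and the test was not passed (adjusted p = 0.0707). Itgb8, which activates latent TGF-beta, was at 64.8 FPKM in cNSC and from 0.605 in mcBKSM clone 3 to 26.6 in DTA in the lines. Nid2, encoding the basement membrane linker nidogen 2, was at 25.8 FPKM in cNSC and from 2.28 in mcBKSM clone 3 to 11.8 in pBKSM. Of 23 tested integrin and laminin genes 3 were chosen as lower and 0 as higher, and 1 fell, Itga3, which was not chosen and was singled out after its value was known. The call of Itga3 (adjusted p = 0.0472) ended without pOKSM (0.172), pBKSM (0.0713), mcBKSM clone 1 (0.145) or mcBKSM clone 3 (0.151), and with a pseudocount of 0.1 (0.221), both clones averaged (0.131) or a filter of 5 FPKM (0.0719).

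A few contractile genes of the smooth muscle type were also chosen. Acta2, smooth muscle actin, was at 47.5 FPKM in cNSC and 99.8 in MEF, and at 0.0662 in pOKSM, 0.860 in pBKSM, 0.0279 in mcBKSM clone 1, 0.0922 in mcBKSM clone 3 and 0.0972 in DTA (log2 difference -5.34 ± 0.38, SE, adjusted p = 0.00435). The line pBKSM stood above the other lines and still lay far below cNSC. Tagln (transgelin) was at 6.04 FPKM in cNSC and 0.127 ± 0.128 in the lines (log2 difference -2.65 ± 0.21, SE, adjusted p = 0.00670). Cnn1 (calponin 1) was at 5.61 FPKM and 0.0176 ± 0.0242 (log2 difference -2.70 ± 0.11, SE, adjusted p = 0.000713). These 3 were the chosen and the called genes of 16 tested contractile genes, whose median difference was -0.33. With a pseudocount of 0.1 the calls of Acta2 (adjusted p = 0.0787) and Tagln (0.101) ended. Beside these genes, the summed level of 6 pericyte and meningeal markers was 13.7 FPKM in cNSC and 1.07 to 6.54 in the lines. Of these 6 markers 5 were under 1 FPKM in cNSC, and the sum is nearly all Foxc1, a mesenchymal and meningeal transcription factor gene that was itself chosen (12.6 FPKM in cNSC, from 0.966 in mcBKSM clone 3 to 5.36 in DTA in the lines). A wider list of 14 such markers summed to 31.6 FPKM in cNSC and to 5.82 to 49.1 in the lines, and its 8 tested genes had a median difference of 0.042, with the mean of the lines above cNSC for 5. The part of such cells in the result was not tested.

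Several astrocyte genes were chosen as lower, and their levels differed widely between the lines. Gfap, the astrocyte intermediate filament gene, was at 374 FPKM in cNSC and at 0.538 in pOKSM, 1.701 in pBKSM, 0.0526 in mcBKSM clone 1, 24.5 in DTA and listed at 0 in mcBKSM clone 3. DTA was the highest line and was still 3.88 below cNSC on the log2(FPKM + 1) scale. The spread between lines was so wide that the mean difference of -7.19 ± 1.80 (SE) did not pass (adjusted p = 0.190). Apoe, the main lipid carrier made by astrocytes, was at 649.6 FPKM in cNSC and at 15.6 in pOKSM, 11.4 in pBKSM, 56.5 in mcBKSM clone 1, 34.97 in mcBKSM clone 3 and 199.7 in DTA. Clu, encoding the secreted chaperone clusterin, was at 33.1 FPKM and from 0.451 in mcBKSM clone 3 to 12.1 in DTA, and Agt, encoding angiotensinogen, at 37.6 and from listed at 0 in mcBKSM clone 1 to 10.02 in pBKSM. Again DTA or pBKSM held the most in each case. Of 19 tested astrocyte genes 5 were chosen as lower and 0 as higher, none was called by limma, and the median difference was -1.63. At an unadjusted p under 0.05 limma gave 6 of the 19. Without DTA the rule would choose 8 as lower, and without mcBKSM clone 3 it would choose 1 as higher. The summed level of 5 defining astrocyte markers was 395 FPKM in cNSC and 0.871 to 68.9 in the lines. Gfap made up 374 FPKM of the cNSC sum. The sums were 68.9 in pBKSM and 64.0 in DTA, with Gfap at 1.701 and 24.5 of them. Without Gfap, the other markers together were thus higher in pBKSM and DTA than in cNSC, and lower in the other lines.

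Some chosen genes are known to mark reactive astrocytes, which are astrocytes responding to injury or inflammation. These sets were drawn up after values had been seen, so their counts are a description. Of 12 tested genes of the set shared by different injuries, 8 were chosen as lower, and the mean of the lines lay below cNSC for all 12, with a median difference of -3.11. Lcn2, the secreted iron-siderophore binder lipocalin 2, was at 139 FPKM in cNSC and at 0.702 in pOKSM, 0.296 in mcBKSM clone 1, 11.7 in DTA and listed at 0 in pBKSM and mcBKSM clone 3. Serpina3n, a protease inhibitor gene, was at 25.8 FPKM in cNSC and at 1.08 in pOKSM, 0.855 in pBKSM, 1.65 in DTA and listed at 0 in mcBKSM clone 1 and mcBKSM clone 3. In both genes DTA was the highest line. Timp1, an inhibitor of matrix metalloproteinases, showed the other order, at 134 FPKM in cNSC, 5.78 in pOKSM, 0.120 in pBKSM, 11.3 in mcBKSM clone 1, 8.86 in mcBKSM clone 3 and 0.0816 in DTA. Here pBKSM and DTA were the lowest lines, and MEF was at 207.

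The hyaluronan receptor gene Cd44 (131 FPKM in cNSC, from 10.7 in pBKSM to 32.99 in mcBKSM clone 1) and the small heat shock gene Hspb1 (33.2, from 0.354 in pBKSM to 10.7 in mcBKSM clone 1) were chosen as well. S1pr3, a receptor for sphingosine 1-phosphate, was the one gene of the set that limma called: it fell from 7.69 FPKM to 0.101 ± 0.0739 (log2 difference -2.98 ± 0.18, SE, adjusted p = 0.00239). In the set tied to ischaemia 4 of 11 were chosen as lower, among them Cd109, a binder of TGF-beta, at 283 FPKM in cNSC and from 7.36 in mcBKSM clone 1 to 36.9 in pBKSM. In the set tied to inflammation 1 of 11 was chosen, Gbp2, an interferon-induced GTPase gene (19.8 FPKM in cNSC, 1.06 ± 0.593 in the lines, adjusted p = 0.0378). The call of Gbp2 ended without pOKSM (adjusted p = 0.166), mcBKSM clone 1 (0.0913) or mcBKSM clone 3 (0.144), and with a pseudocount of 0.1 (0.158) or both clones averaged (0.110). Beside these sets, 6 defining markers of microglia were all under 1 FPKM in cNSC and 4 of them were listed at 0 in cNSC and in every line, with a sum of 0.0494 FPKM in cNSC and 0 to 2.05 in the lines. A wider list of 14 microglia markers summed to 22.1 FPKM in cNSC and 19.3 to 31.9 in the lines, with the lysosomal gene Cd68 at 7.93 FPKM in cNSC and from 2.17 in DTA to 9.68 in mcBKSM clone 1.

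**Figure D4:**
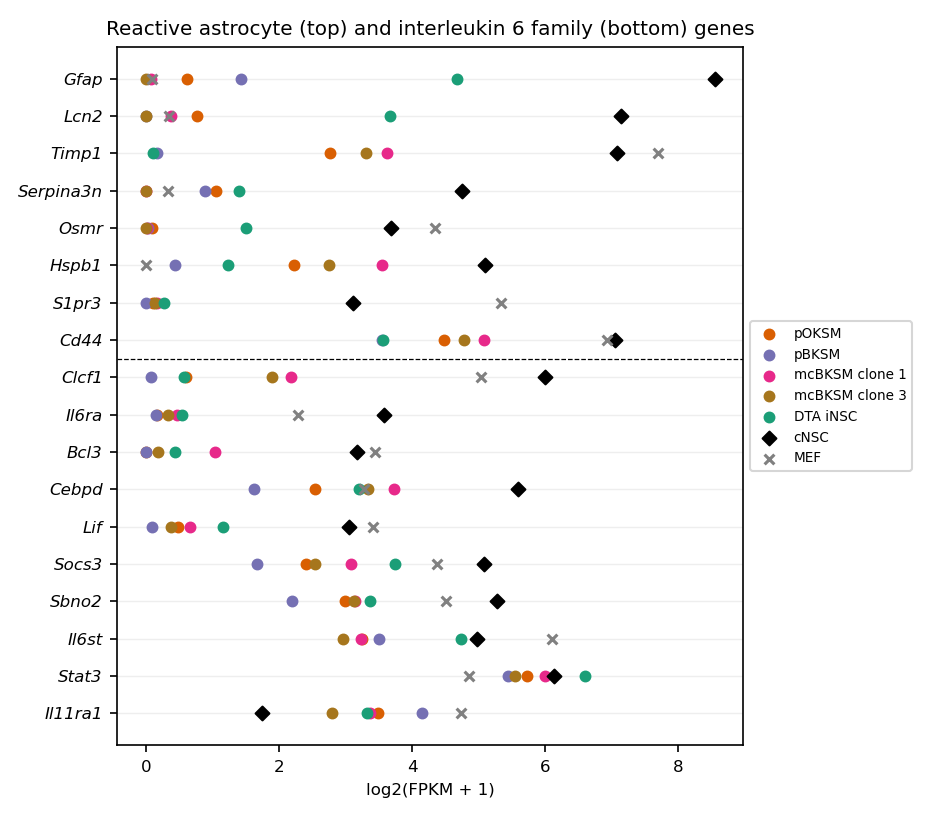
Levels of the chosen reactive astrocyte genes (upper rows) and of interleukin 6 family and STAT3 response genes (lower rows), as log2(FPKM + 1) on the x axis, 1 symbol per library. The cNSC diamond lies to the right of all 5 line circles in each row except Stat3 and Il11ra1. For S1pr3, Il6ra and Bcl3 the lines stay close together, and for Gfap, Lcn2 and Timp1 they are far apart.

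Genes of the interleukin 6 family, which signals through gp130, were chosen at several levels of the pathway. Of 24 tested genes of a list drawn up after values had been seen, 8 were chosen as lower and 1 as higher, and the median difference was -1.08. Among the ligands, Clcf1 (cardiotrophin-like cytokine) was at 62.6 FPKM in cNSC and at 0.523 in pOKSM, 0.0515 in pBKSM, 3.53 in mcBKSM clone 1, 2.71 in mcBKSM clone 3 and 0.486 in DTA (adjusted p = 0.0897). Lif (leukaemia inhibitory factor) was at 7.33 FPKM in cNSC and at 0.405 in pOKSM, 0.0671 in pBKSM, 0.587 in mcBKSM clone 1, 0.304 in mcBKSM clone 3 and 1.23 in DTA (adjusted p = 0.0658). MEF had both, at 31.8 and 9.67 FPKM.

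Among the receptors, Il6ra fell from 10.9 FPKM to 0.266 ± 0.154 (log2 difference -3.25 ± 0.21, SE, adjusted p = 0.00337), with all lines at or under 0.460 FPKM. With a pseudocount of 0.1 its adjusted p was 0.0580. Osmr, the oncostatin M receptor gene, was at 11.8 FPKM in cNSC and at 0.0681 in pOKSM, 0.0184 in pBKSM, 0.0144 in mcBKSM clone 1, 1.85 in DTA and listed at 0 in mcBKSM clone 3 (adjusted p = 0.102). The shared chain gp130 itself, encoded by Il6st, was not chosen: it was at 30.5 FPKM in cNSC and at 8.47 in pOKSM, 10.3 in pBKSM, 8.38 in mcBKSM clone 1, 6.82 in mcBKSM clone 3 and 25.6 in DTA. Only DTA was within 2-fold of cNSC, and the other 4 lines were lower. The receptor gene Il11ra1 went the other way, at 2.34 FPKM in cNSC and from 5.99 in mcBKSM clone 3 to 16.8 in pBKSM in the lines.

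Downstream, Stat3 was at 69.4 FPKM in cNSC, inside the range of the lines (from 42.6 in pBKSM to 96.01 in DTA). Genes that STAT3 is known to induce were chosen as lower. Socs3, the feedback inhibitor of the receptor, was at 32.8 FPKM in cNSC and at 4.296 in pOKSM, 2.19 in pBKSM, 7.45 in mcBKSM clone 1, 4.85 in mcBKSM clone 3 and 12.4 in DTA. Bcl3 was at 8.07 FPKM and from listed at 0 in pBKSM to 1.05 in mcBKSM clone 1, Cebpd at 47.1 and from 2.102 in pBKSM to 12.2 in mcBKSM clone 1, and Sbno2 at 37.6 and from 3.58 in pBKSM to 9.305 in DTA. None of these passed the test (adjusted p = 0.272, 0.0572, 0.240 and 0.110). Outside this family, the cytokine gene Il34, whose product binds the CSF1 receptor, fell from 17.9 FPKM to 0.195 ± 0.222 (log2 difference -4.00 ± 0.29, SE, adjusted p = 0.00476), although MEF was at 18.9, and its call ended with a pseudocount of 0.1 (adjusted p = 0.127).

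Calcium-binding S100 proteins, annexins and caveola proteins, which act at the inner face of the plasma membrane, were a further group, listed after values had been seen. Of 10 tested S100 genes 5 were chosen as lower and 0 as higher, with a median difference of -1.71. S100a3 was at 15.4 FPKM in cNSC and listed at 0 in all 5 lines (adjusted p = 0.000269). Its line values had no spread, so this p rests on the spread that limma takes from other genes. S100a4 was at 81.1 FPKM in cNSC and at 2.69 in pOKSM, 4.51 in pBKSM, 2.06 in mcBKSM clone 1, 0.226 in mcBKSM clone 3 and 7.35 in DTA, beside 3002 in MEF. S100a10, whose protein pairs with annexin A2, was at 795 FPKM in cNSC and from 118 in pBKSM to 334 in DTA in the lines, and Anxa2 itself at 339 and from 19.1 in pBKSM to 122 in DTA. S100a11 was at 248 FPKM in cNSC and from 37.2 in mcBKSM clone 1 to 116 in DTA. In MEF, S100a10 was at 1306 FPKM, S100a11 at 1383 and Anxa2 at 1243, all above cNSC.

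Of 6 tested caveolin and cavin genes 3 were chosen as lower and 0 as higher. Cav1, the main caveola coat gene, was at 73.8 FPKM in cNSC and at 21.7 in pOKSM, 1.75 in pBKSM, 32.2 in mcBKSM clone 1, 34.6 in mcBKSM clone 3 and 2.8001 in DTA. Cav2 was at 98.5 FPKM in cNSC and at 6.88 in pOKSM, 0.735 in pBKSM, 9.62 in mcBKSM clone 1, 10.9 in mcBKSM clone 3 and 20.3 in DTA. Ptrf, encoding cavin 1, was at 206 FPKM in cNSC and at 35.9 in pOKSM, 1.33 in pBKSM, 74.2 in mcBKSM clone 1, 48.1 in mcBKSM clone 3 and 60.1 in DTA. The line pBKSM was lowest for all 3, and DTA was nearly as low as pBKSM for Cav1 but the highest line for Cav2. None of the 3 passed the test (adjusted p = 0.528, 0.325 and 0.545).

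Subunits of the transcription factor AP-1, a dimer of Fos and Jun family proteins, were split. Fosl1 fell from 6.64 FPKM in cNSC to 0.260 ± 0.190 across the lines, with MEF at 129.9 (log2 difference -2.61 ± 0.26, SE, adjusted p = 0.0141). Its call ended without pOKSM (adjusted p = 0.0806) or mcBKSM clone 1 (0.0740), and with a pseudocount of 0.1 (0.129) or both clones averaged (0.0551). Fosl2 (12.1 FPKM in cNSC, from 0.729 in mcBKSM clone 1 to 3.93 in DTA) and Junb (45.2, from 9.05 in pOKSM to 21.4 in pBKSM) were chosen as lower as well. Fosb was chosen as higher, at 0.829 FPKM in cNSC and at 6.08 in pOKSM, 8.54 in pBKSM, 11.2 in mcBKSM clone 1, 7.73 in mcBKSM clone 3 and 21.1 in DTA.

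Promoters were read from RefSeq (build GRCm38.p6), which had entries for 186 of the 266 lower and 70 of the 94 higher genes, and the 250 bases before each start were searched on both strands. The AP-1 motif TGANTCA lay in 9.96% of 261 promoters of lower genes and 1.08% of 93 promoters of higher genes, beside 4.38% of 13072 promoters of all genes tested and 6.75% of 32851 promoters in the table. The following 4 stretches show it in lower genes of the matrix, caveola and annexin groups, with the motif in capitals. They span chr10:76726075-76726194, minus strand (Col6a1), chr6:17281033-17281152, plus strand (Cav2), chr9:69453528-69453647, plus strand (Anxa2) and chr3:93520376-93520495, plus strand (S100a11), each written 5′ to 3′ along the gene.
Col6a1: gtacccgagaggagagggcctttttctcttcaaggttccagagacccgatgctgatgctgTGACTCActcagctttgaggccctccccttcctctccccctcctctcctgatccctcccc
Cav2: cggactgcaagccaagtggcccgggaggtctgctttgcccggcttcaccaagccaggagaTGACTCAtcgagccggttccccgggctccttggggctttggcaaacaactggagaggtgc
Anxa2: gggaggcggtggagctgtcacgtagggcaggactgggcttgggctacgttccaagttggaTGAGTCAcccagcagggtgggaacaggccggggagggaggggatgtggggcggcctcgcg
S100a11: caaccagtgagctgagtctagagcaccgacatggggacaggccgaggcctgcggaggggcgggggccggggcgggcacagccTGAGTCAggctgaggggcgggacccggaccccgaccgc
The motif begins 90, 92, 95 and 38 bases before the start in the order given. A match is a run of letters and does not show that the factor binds there.

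The cyclic AMP response element TGACGTCA lay in 1.92% of promoters of lower genes, 5.38% of those of higher genes and 2.60% of those of all genes tested, which is 5 promoters on each side. It is shown for the lower gene Scg2, described above with the peptides, and for the higher gene Dusp1, which encodes a phosphatase of MAP kinases (2.96 FPKM in cNSC, from 8.62 in pOKSM to 22.9 in pBKSM). The stretches are chr1:79440035-79440154, minus strand (Scg2) and chr17:26508556-26508675, minus strand (Dusp1).
Scg2: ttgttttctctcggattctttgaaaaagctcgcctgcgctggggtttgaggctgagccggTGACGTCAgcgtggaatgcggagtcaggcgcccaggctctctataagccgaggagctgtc
Dusp1: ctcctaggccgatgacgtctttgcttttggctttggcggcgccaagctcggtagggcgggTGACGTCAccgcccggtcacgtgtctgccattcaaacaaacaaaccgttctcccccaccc
The motif TTCNNNGAA of STAT factors, added after values had been seen, lay in 6.90% of promoters of lower genes, 2.15% of those of higher genes and 5.78% of those of all genes tested. The E-box CANNTG lay in 57.9%, 66.7% and 56.7%, and the GC box GGGCGG in 47.9%, 63.4% and 58.2%. Matches of different motifs may overlap.

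Immediate early and cyclic AMP response genes had members on both sides, 4 of 30 chosen as higher and 5 as lower. Besides Fosb and Dusp1, the higher ones were Nr4a1, singled out after its value was known (3.25 FPKM in cNSC, from 9.79 in pOKSM to 27.2 in pBKSM), and Pde1c, a calmodulin-regulated phosphodiesterase gene. Pde1c rose from 1.27 FPKM in cNSC to 11.9 ± 1.76 across the lines (adjusted p = 0.0169). Its call ended without pOKSM (adjusted p = 0.0947), mcBKSM clone 1 (0.0787) or mcBKSM clone 3 (0.0718), and with both clones averaged (0.0666). On the lower side Ier3 was at 89.7 FPKM in cNSC and from 6.95 in pBKSM to 25.9 in DTA.

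Core neural stem cell genes overlapped between cNSC and the lines. Nes was at 225 FPKM in cNSC and at 189 in pOKSM, 275 in pBKSM, 145 in mcBKSM clone 1, 132 in mcBKSM clone 3 and 202 in DTA, so that cNSC lay inside the range of the lines. Pax6 (9.597 FPKM in cNSC, from 5.33 in mcBKSM clone 1 to 12.6 in DTA) and Olig2 (247, from 59.5 in mcBKSM clone 3 to 423 in pBKSM) overlapped in the same way. Of 29 tested neural stem cell and radial glia genes 3 were chosen as lower and 0 as higher, none was called, and the median difference was -0.46; 4 had an unadjusted p under 0.05. The chosen ones were Tnc, encoding the matrix protein tenascin C (405 FPKM in cNSC, 40.2 in pOKSM, 56.5 in pBKSM, 15.03 in mcBKSM clone 1, 11.2 in mcBKSM clone 3 and 185 in DTA), Ednrb, the endothelin receptor B gene (77.1, from 4.099 in mcBKSM clone 3 to 30.8 in pBKSM), and Nr2e1, a nuclear receptor gene of adult and embryonic neural stem cells (9.28, from 0.0241 in mcBKSM clone 3 to 3.23 in pBKSM). The clones mcBKSM 1 and 3 were the lowest lines for all 3. Without pBKSM 1 gene of this list would be chosen as higher.

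The signalling pathway lists held chosen genes, except that 0 of 13 tested Hedgehog genes were chosen. Over all genes tested the rule chose 2.04% as lower and 0.721% as higher, so a list as short as the Hedgehog one would often hold none. The Wnt ligand gene Wnt7b was at 97.2 FPKM in cNSC and at 7.71 in pOKSM, 20.97 in pBKSM, 1.38 in mcBKSM clone 1, 0.783 in mcBKSM clone 3 and 12.98 in DTA (adjusted p = 0.345). Rnf43, a ubiquitin ligase that removes Wnt receptors from the surface, fell from 6.88 FPKM to 0.0504 ± 0.0825 (log2 difference -2.91 ± 0.15, SE, adjusted p = 0.00134). Of 38 tested Wnt genes 2 were chosen as lower and 3 as higher (Tle2, Tle6 and Tcf7l1), and without DTA 6 would be lower and 4 higher. Dner, a neuronal Notch ligand gene, was at 84.5 FPKM in cNSC and from 0.597 in mcBKSM clone 3 to 33.7 in pBKSM, and was the one chosen gene of 20 tested Notch genes, where leaving out pBKSM would give 3. Of 29 tested FGF and EGF genes 2 were chosen as lower: Hbegf, an EGF receptor ligand (70.2 FPKM in cNSC, from 4.52 in mcBKSM clone 3 to 25.1 in DTA), and Erbb4, a neuregulin receptor (6.21, from 0.175 in pOKSM to 2.46 in DTA). Without DTA 4 of these 29 would be lower, and without pBKSM 3. Igfbp3, which binds insulin-like growth factors, was at 822 FPKM in cNSC and from 115 in mcBKSM clone 1 to 317 in pBKSM and was chosen out of 15 tested genes of that axis. Without DTA 2 of the 15 would be lower and 3 higher. Among 34 TGF-beta and BMP genes 1 was chosen in each direction, Ltbp3 as lower and Bmp7 as higher, and without DTA 2 would be lower.

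Among secreted and membrane proteins of neurons and glia, Reln, the migration cue reelin, fell from 11.2 FPKM to 0.358 ± 0.231 (log2 difference -3.19 ± 0.27, SE, adjusted p = 0.00766), and its call ended without pOKSM (adjusted p = 0.0566) and with a pseudocount of 0.1 (0.127). Of 33 tested ion channel genes 4 were chosen as lower and 0 as higher, and 2 fell. Kcnk3, a leak potassium channel gene, was at 5.35 FPKM in cNSC and 0.125 ± 0.152 in the lines (log2 difference -2.51 ± 0.21, SE, adjusted p = 0.00766). Kcna2, a voltage-gated potassium channel gene, was at 9.47 and 0.830 ± 0.388 (log2 difference -2.54 ± 0.32, SE, adjusted p = 0.0319). Cacng5 (57.9 FPKM in cNSC, from listed at 0 in pBKSM to 4.05 in DTA) was chosen and did not pass. The call of Kcnk3 ended without pOKSM (adjusted p = 0.0566), and with a pseudocount of 0.1 (0.136). That of Kcna2 ended without pOKSM (adjusted p = 0.133), mcBKSM clone 1 (0.0960) or mcBKSM clone 3 (0.131), and with a pseudocount of 0.1 (0.136) or both clones averaged (0.112). Of 24 tested neuronal genes 2 were chosen as lower, Gap43 (100.2 FPKM in cNSC, from 5.74 in DTA to 38.5 in pOKSM) and Stmn3 (11.8, from 1.43 in pBKSM to 4.18 in DTA), and the median difference was -0.025. Without DTA 4 would be lower and 1 higher. The summed level of 6 defining neuron markers was 14.7 FPKM in cNSC and 11.8 to 98.1 in the lines.

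Imprinted genes are read from 1 parental copy. Of those chosen, Nnat was very uneven between the lines, and H19 and Peg12 were much less so. Nnat, a paternally expressed gene of the developing brain, was at 163 FPKM in cNSC and at 55.9 in pOKSM, 8.71 in pBKSM, 0.0674 in mcBKSM clone 1 and listed at 0 in mcBKSM clone 3 and DTA. Most of it was in pOKSM and pBKSM, the other 3 lines were at or below the floor, and the test was not passed (log2 difference -5.52 ± 2.45, SE, adjusted p = 0.406). H19, a maternally expressed noncoding RNA, fell from 9.19 FPKM in cNSC to 0.187 ± 0.120 across the lines, with MEF at 167 (log2 difference -3.11 ± 0.22, SE, adjusted p = 0.00417). Peg12, paternally expressed, was chosen as higher, at 16.9 FPKM in cNSC and from 37.2 in DTA to 72.5 in pOKSM. These were the 3 chosen genes of 25 tested imprinted genes, with a median difference of 0.22. Without DTA 2 would be chosen as higher.

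Of the Hox, forebrain, and midbrain and hindbrain lists, only En2 was chosen. Over all genes tested the rule chose 2.04% as lower and 0.721% as higher, so lists of this size would often hold none. No Hox gene of 30 tested was chosen in either direction and none was called. Their median difference was 0.91, the mean of the lines lay above cNSC for 26, and 1 had an unadjusted p under 0.05. Of 39 Hox genes, the 32 listed at 0 in cNSC could not be chosen as lower. Hoxb7 was listed at 0 in cNSC, and was at 12.4 in pOKSM, 11.2 in mcBKSM clone 1, 15.8 in mcBKSM clone 3, 14.9 in DTA and listed at 0 in pBKSM. Without pBKSM the rule would choose 5 Hox genes as higher. Of 18 tested forebrain genes 0 were chosen (1 as lower without mcBKSM clone 1), the median difference was 0.58, and 1 rose: Emx2, at 0.0251 FPKM in cNSC, 4.52 in pOKSM, 2.73 in pBKSM, 4.89 in mcBKSM clone 1, 3.74 in mcBKSM clone 3 and 4.47 in DTA (log2 difference 2.29 ± 0.31, SE, adjusted p = 0.0413). In MEF, Emx2 was at 11.4 FPKM, above every line. The call of Emx2 ended without pOKSM (adjusted p = 0.173), mcBKSM clone 1 (0.124) or mcBKSM clone 3 (0.145), and with both clones averaged (0.125) or a filter of 5 FPKM (0.0534). Of 13 tested midbrain and hindbrain genes En2 was chosen as lower, at 22.2 FPKM in cNSC and at 6.54 in pOKSM, 7.41 in pBKSM, 1.37 in mcBKSM clone 1, 4.799 in mcBKSM clone 3 and 3.05 in DTA. The mean of the lines lay below cNSC for 10 of these 13, with a median difference of -1.63, and 4 had an unadjusted p under 0.05. Without pBKSM 3 of them would be chosen as lower, and without DTA 4 as lower and 1 as higher. Irx1 was at 14.97 FPKM in cNSC and at 17.2 in DTA, and under 0.1 in the other lines.

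Matrix and mesenchymal transcription factor genes were among the higher genes with large differences. Mfap2, a microfibril component, was at 0.134 FPKM in cNSC, at 82.7 in pOKSM, 5.41 in pBKSM, 89.4 in mcBKSM clone 1, 89.8 in mcBKSM clone 3 and 18.9 in DTA and listed at 0 in MEF. Tbx15, a T-box factor of embryonic mesenchyme, was at 0.0898 FPKM in cNSC, at 39.5 in pOKSM, 15.4 in pBKSM, 11.2 in mcBKSM clone 1, 54.5 in mcBKSM clone 3 and 12.2 in DTA and at 12.7 in MEF. Osr2, an odd-skipped factor of limb and palate mesenchyme, was at 0.119 FPKM in cNSC, from 6.15 in DTA to 22.8 in mcBKSM clone 1 in the lines and 6.67 in MEF. None of these passed the test (adjusted p = 0.279, 0.133 and 0.103). Pcolce, an enhancer of procollagen processing, was at 1.34 FPKM in cNSC, from 11.7 in mcBKSM clone 3 to 38.4 in mcBKSM clone 1 in the lines and 479.9 in MEF. Fbln1, encoding the matrix protein fibulin 1, was at 8.17 FPKM in cNSC and from 34.1 in pBKSM to 63.2 in mcBKSM clone 1, and was the one gene chosen as higher among 36 tested fibroblast genes, of which 3 were chosen as lower. The median over these 36 was 0.081, and without DTA 3 would be higher and 5 lower.

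Genes of membrane signalling were among those that rose. Pdpn, encoding the surface glycoprotein podoplanin, was at 3.69 FPKM in cNSC and at 42.1 in pOKSM, 38.9 in pBKSM, 44.95 in mcBKSM clone 1, 44.4 in mcBKSM clone 3 and 82.97 in DTA (log2 difference 3.40 ± 0.42, SE, adjusted p = 0.0287). The other 4 lines lay close together and DTA above them. Sirpa, the receptor for the "do not eat me" signal CD47, was at 6.04 FPKM in cNSC and at 44.1 in pOKSM, 39.4 in pBKSM, 36.1 in mcBKSM clone 1, 46.3 in mcBKSM clone 3 and 45.5 in DTA (log2 difference 2.61 ± 0.18, SE, adjusted p = 0.00417). The call of Sirpa held in every alternative checked for it (highest adjusted p = 0.0385), which did not include the fits without MEF or without a filter. Lmcd1, a LIM domain regulator of transcription, rose from 1.21 FPKM to 18.1 ± 3.599 (log2 difference 3.08 ± 0.32, SE, adjusted p = 0.0159). Gnao1 (a G protein alpha subunit), Gas6 (ligand of the TAM receptors) and Ly6e (a lipid-anchored surface protein) were chosen without passing, at 1.05, 1.96 and 1.16 FPKM in cNSC. In the lines they ran from 8.19 in pBKSM to 44.8 in mcBKSM clone 3, from 13.7 in mcBKSM clone 3 to 67.7 in DTA and from 7.78 in DTA to 33.9 in mcBKSM clone 1. The call of Pdpn ended without pOKSM (adjusted p = 0.117), pBKSM (0.0615), mcBKSM clone 1 (0.104) or mcBKSM clone 3 (0.111), and with both clones averaged (0.110). That of Lmcd1 ended without pOKSM (adjusted p = 0.0947), mcBKSM clone 1 (0.0609) or mcBKSM clone 3 (0.0662), and with both clones averaged (0.0551).

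A run of neighbouring genes on chromosome 10 encodes corepressors of the Groucho family, which bind transcription factors and silence their targets. Aes, the short member, spans 81559488 to 81566362, Tle2 81574561 to 81590845 and Tle6 81590904 to 81601073 (mm10). Tle2 was at 5.004 FPKM in cNSC and 5.28 in MEF, and at 41.7 in pOKSM, 43.98 in pBKSM, 34.3 in mcBKSM clone 1, 44.2 in mcBKSM clone 3 and 27.9 in DTA (log2 difference 2.69 ± 0.29, SE, adjusted p = 0.0180). Tle6 was at 6.09 FPKM in cNSC and 5.54 in MEF, and at 58.99 in pOKSM, 72.8 in pBKSM, 59.5 in mcBKSM clone 1, 82.7 in mcBKSM clone 3 and 33.1 in DTA (adjusted p = 0.0607). In these 2 genes cNSC and MEF were alike in level and every line was above both. Aes was at 164 FPKM in cNSC and from 344 in mcBKSM clone 1 to 429 in pBKSM in the lines (adjusted p = 0.0654). All 3 were the chosen genes of 6 tested members, a list drawn up after values had been seen. The call of Tle2 ended without pOKSM (adjusted p = 0.0947), mcBKSM clone 1 (0.0740) or mcBKSM clone 3 (0.0749), and with both clones averaged (0.0666). Reads of genes that lie this close may be shared.

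Some genes of mitosis were chosen as higher, as were 0.721% of all genes tested. Of 30 tested replication and mitosis genes 3 were chosen as higher and 0 as lower, 1 rose, the mean of the lines lay above cNSC for 25, and the median difference was 0.60. Without DTA 5 would be chosen as higher. Birc5 (survivin) rose from 50.1 FPKM in cNSC to 131 in pOKSM, 135 in pBKSM, 127 in mcBKSM clone 1, 115 in mcBKSM clone 3 and 109 in DTA (log2 difference 1.28 ± 0.16, SE, adjusted p = 0.0326). Cenpa, the centromere histone gene, was at 34.6 FPKM in cNSC and from 77.6 in DTA to 113 in mcBKSM clone 3, and Ube2c, of the anaphase ubiquitin pathway, at 93.1 and from 197 in DTA to 309.8 in mcBKSM clone 3. In MEF, Birc5 was at 157 FPKM and Cenpa at 117, each above every line. Stmn1, the microtubule-destabilising protein stathmin, rose from 119 FPKM in cNSC to 321 ± 28.2 (log2 difference 1.41 ± 0.18, SE, adjusted p = 0.0311). The call of Birc5 ended without pOKSM (adjusted p = 0.162), pBKSM (0.0632), mcBKSM clone 1 (0.124) or mcBKSM clone 3 (0.131), and with a pseudocount of 0.1 (0.0506) or both clones averaged (0.118). That of Stmn1 ended without pOKSM (adjusted p = 0.128), pBKSM (0.0559), mcBKSM clone 1 (0.124) or mcBKSM clone 3 (0.144), and with a pseudocount of 0.1 (0.0506), both clones averaged (0.125) or quantile normalization (0.0602).

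The neighbouring cell cycle inhibitor genes Cdkn2a and Cdkn2b on chromosome 4 were chosen in opposite directions. Cdkn2a, which encodes p16INK4a and p19ARF, was at 20.9 FPKM in cNSC, at 295 in pOKSM, 97.5 in pBKSM, 453 in mcBKSM clone 1, 378 in mcBKSM clone 3 and 53.6 in DTA and at 82.4 in MEF. Cdkn2b, which encodes p15INK4b, was at 22.4 FPKM in cNSC, at 3.32 in pOKSM, 2.33 in pBKSM, 7.195 in mcBKSM clone 1, 5.44 in mcBKSM clone 3 and 2.53 in DTA and at 14.7 in MEF. Cdkn2a was highest in pOKSM and both clones, the lines in which Myc was also highest (339, 449.6 and 485 FPKM, against 42.5 in cNSC). Whether fragments of viral factor copies count towards Myc was not tested. Neither inhibitor gene passed the test (adjusted p = 0.362 and 0.180).

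Further higher genes included Cbs, an enzyme of homocysteine metabolism (5.86 FPKM in cNSC, 101 in pOKSM, 16.1 in pBKSM, 128 in mcBKSM clone 1, 121 in mcBKSM clone 3 and 47.8 in DTA, listed at 0 in MEF), and Fstl1, a secreted BMP antagonist gene (16.8, from 44.9 in pBKSM to 87.1 in mcBKSM clone 1). Bmp7 itself was at 3.22 FPKM in cNSC, from 12.2 in DTA to 20.97 in pBKSM and listed at 0 in MEF. Some values in the lists are uncertain. Eno1b, which fell from 91.5 FPKM to 0.160 ± 0.176, is a near copy of Eno1. Several ribosomal protein genes and pseudogenes on the higher side, such as Rps18 and Rps2, also share reads with copies. Hotairm1 (6.32 FPKM in cNSC, from 23.1 in pOKSM to 43.9 in mcBKSM clone 1) lies antisense in the Hoxa cluster, Mrps6 and Slc5a3 overlap on chromosome 16, and the use of strand in counting is not given in the sources used here. The FPKM of small RNAs such as Snord16a, chosen as higher, is unreliable because they are shorter than a usual fragment.

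The other lists are given beside the shares over all genes tested, 2.04% chosen as lower and 0.721% as higher. Of 30 interferon-stimulated genes 1 was chosen as higher (Ifitm2, 131 FPKM in cNSC, from 294 in DTA to 449.6 in mcBKSM clone 1) and 2 as lower (Gbp2 and Gbp3), and the mean of the lines lay below cNSC for 23. Of 23 cholesterol genes none was chosen or called, although the mean of the lines lay below cNSC for 20, with a median difference of -0.61; 7 had an unadjusted p under 0.05. Hmgcs1, encoding HMG-CoA synthase of that pathway, was at 405 FPKM in cNSC and from 104 in mcBKSM clone 1 to 286 in pBKSM. Of 24 glycolysis genes 3 were chosen as lower, Eno1b, Eno2 and the glucose transporter gene Slc2a3 (25.2 FPKM in cNSC, from 2.97 in pBKSM to 11.2 in mcBKSM clone 3). Of 41 axon guidance genes Epha2 was chosen as lower, and of 14 oligodendrocyte lineage genes Cspg4. No gene was chosen among 16 antigen presentation, 13 Hedgehog and 4 tested pluripotency genes. Leaving out pBKSM would add 1 lower and 1 higher axon guidance gene, 1 lower cholesterol gene and 1 higher Hedgehog gene. Leaving out DTA would add 1 lower and 1 higher gene each in the axon guidance and oligodendrocyte lists, and 1 lower gene each in the antigen presentation and Hedgehog lists.

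The MEF library was not used to choose the genes, and it gives their level in embryonic fibroblasts. Its genotype is not that of DTA, whose strain is given as unknown. The Y-linked genes Ddx3y, Kdm5d and Eif2s3y were listed at 0 in MEF. Ddx3y was at 0.0391 FPKM in DTA and 11.4 to 28.3 in the other lines, and Kdm5d at 0 and 3.52 to 8.73. Eif2s3y was at 31.2 FPKM in pBKSM and at or under 0.0730 in the other lines. Of the 94 higher genes 70 (74.5%) were at 5 FPKM or more in MEF and 16 (17.0%) under 1 FPKM. Of all 7652 genes with 5 FPKM in every iNSC library, 92.5% and 2.86% were. Of the 266 lower genes 137 (51.5%) were at 5 FPKM or more in MEF and 101 (38.0%) under 1 FPKM. Of all 9039 genes with 5 FPKM in cNSC, 86.9% and 6.02% were. In both directions the share at 5 FPKM or more lay below that of all genes with the same 5 FPKM minimum, which were not matched for level. The lower genes included genes that were far higher in MEF than in any line, such as Col6a1, Acta2, S100a4 and H19, and genes that are low in MEF as well, such as Gfap, Calca and Nnat. With 1 MEF library these shares are a description.

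**Figure D5:**
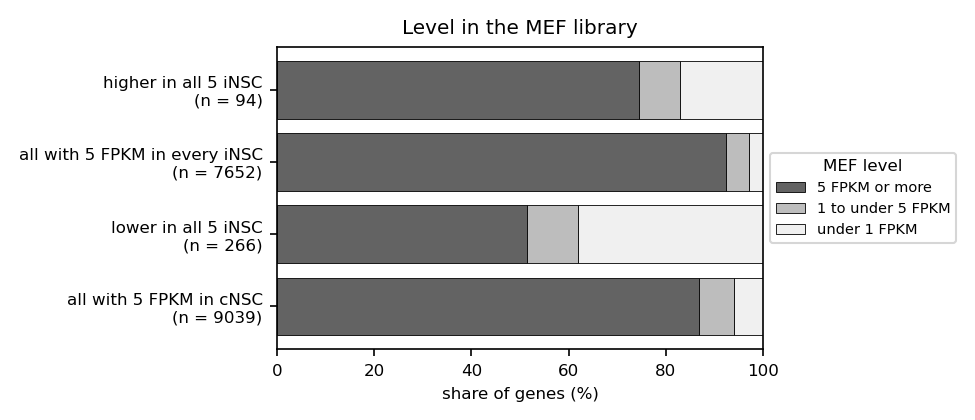
Bars give the share of genes (%) at 5 FPKM or more, at 1 to under 5 and under 1 FPKM in the MEF library. Of the genes lower in all 5 lines 38.0% were under 1 FPKM in MEF, against 6.02% of all genes with 5 FPKM in cNSC.

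Position was not used either. Of 266 lower genes 38 (14.3%) had another lower gene within 100 kb, where 5.59% of all tested genes had one, and of 92 higher genes with a position 10 (10.9%) did, against 2.77%. On the lower side, neighbours of 1 gene family were Cav1 and Cav2, Col4a5 and Col4a6, Col6a1 and Col6a2, S100a10 and S100a11, S100a3, S100a4 and S100a16, Gbp2 and Gbp3, Ifi202b and Ifi203, and Car2 and Car3. The other lower neighbours were Vgf and Plod3, Adamts14 and Sgpl1, Cd63 and Itga7, Dbndd2 and Sdc4, Dhrs1 and Nop9, Fryl and Ociad2, Lpo and Rnf43, Ltbp3 and Neat1, Mrps6 and Slc5a3, and A430105I19Rik, Disp2 and Inafm2. On the higher side they were the 3 Groucho family genes, Cenpa and Dpysl5, Kifc1 and Rps18, and Msrb1, Rps2 and Snhg9. Chromosome 17 held 13 of the higher genes and 652 of 12942 tested genes with a position. Protein-coding genes made up 257 of the 266 lower and 80 of the 94 higher genes, beside 12471 of all 13042 genes tested.

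Some genes lay right at the threshold. On the higher side Cdc25c, Rab26os and Snhg9 were just inside, each with the nearest line 1.01 above cNSC in log2(FPKM + 1), and 2810001G20Rik, Gnb4 and Thbs3 were just outside. On the lower side Anxa1, Emp2 and Pak1 were just inside and Arsb, Dusp5 and Tesc just outside. Anxa1, for example, was at 20.9 FPKM in cNSC and 9.93 in pBKSM, and Tesc at 13.6 in cNSC and 6.2995 in DTA.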

How the data were processed

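RNA sequencing of 7 mouse libraries was used: 5 iNSC, 1 cNSC and 1 MEF. The authors deposited FPKM per gene symbol for all libraries in 1 table. The submitters' processing notes name build mm10, R 3.3.2, Cuffnorm, Cufflinks 2.2.1 and STAR 2.5.2b; what each was set to do is not given in the sources used here. Per the labels' protocols, each library pools RNA of 2 to 3 biological replicates. Since the values are scaled between libraries, a shift in RNA content per cell would not show. Groups follow the labels, and columns were matched to samples by title.

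Values were taken as log2(FPKM + 1). The rule asked for 2-fold in all 5 lines and 5 FPKM in every library of the higher side. Limma-trend (limma 3.58.1, R 4.3.3) was fitted to the 13042 genes that reached 1 FPKM in any library, with 4 residual degrees of freedom. It was also run on simulated data in which cNSC was given the spread of the lines. That run therefore cannot check whether cNSC varies like them. Its changed genes were all at line means above about 5 FPKM, so genes at the floor were not covered. P-values set the difference against the spread between lines, which limma moderates with that of other genes. Fragment counts were not used here. Depth (10.85 to 16.15 in units of 1e6 fragments) was estimated from steps between low values and is approximate. Gene positions came from GENCODE M21 for 23934 of the symbols, and promoters from RefSeq.

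The members and the 42 gene lists were chosen with earlier results of these data known, 7 lists after the values here were seen. Named genes were the 10 largest differences each way (without Gm, Mir and Rik names, snoRNA and ribosomal protein genes), up to 4 chosen genes per list or 2 as values, the 3 genes nearest the threshold on each side, and factor, marker and sex-linked genes. Further genes were named after their values were seen, among them the genes of the 7 later lists beyond this rule, the Y-linked genes, Sirpa, Pde1c, Lmcd1, Stmn1, Il34, Reln, Slc5a3, Mrps6, Hotairm1 and Cdkn2b. Pseudocount, filters, fold, normalization, left-out libraries and averaged clones were varied. Some genes that these choices cover are not reported here.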

Additional observations from a re-analysis of the deposited data

Results flagged for a closer look

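Single lines that stood apart from the other 4 were looked for in 22 sets of values, the 20 genes with the largest differences and both counts per line, by the gap to the nearest line as a share of the whole range. A share above 0.71 marked 5 genes. That limit marks about 1 in 20 sets of unselected values. The rate does not apply here, because the genes were chosen from these same values and some are near the floor. In 4 of the 5 genes the line was DTA, which was also the line nearest to cNSC for 40.0% of all genes tested. Lcn2 was 11.7 FPKM in DTA and at or under 0.702 in the other lines, and Itga7 was 7.97 FPKM in DTA and at or under 1.63 in the others. In both the DTA line lay nearer to cNSC. Ly6e was 7.78 FPKM in DTA, below the 27.5 or more of the other lines and so again nearer to cNSC. Pdpn was 83.0 FPKM in DTA, above the 44.95 or less of the others and farther from cNSC. Acta2 was 0.860 FPKM in pBKSM and at or under 0.0972 in the others, which is at the floor.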

How the results depend on the processing

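The rule gave 111 higher and 289 lower genes with a pseudocount of 0.1, 111 and 267 after quantile normalization, and 107 and 274 with both mcBKSM clones averaged. Asking for 1.5-fold gave 297 and 494, and 3-fold 28 and 136. Leaving out 1 line at a time gave 95 to 271 higher and 269 to 529 lower genes, with the highest counts without DTA. After quantile normalization 92 of the 94 and 253 of the 266 genes remained chosen. Limma counts moved more. A pseudocount of 0.1 gave 55 lower, no filter gave 62 higher and 611 lower, and a filter of 5 FPKM gave 17 and 57. Averaged clones gave 3 and 59, and a fit without MEF 13 and 70. Calls of single genes were not checked in the fits without MEF or without a filter. Leaving out 1 line gave 2 to 353 higher and 47 to 530 lower genes, the lowest without mcBKSM clone 3 (higher) and pOKSM (lower), the highest without DTA. Among 171 named genes, calls ended in 17 cases with a pseudocount of 0.1, in 14 with averaged clones, in 3 with a filter of 5 FPKM, in 1 with quantile normalization and in 51 with a line left out, and 52 were gained that way. The cause was not tested. No paired analysis was possible because cNSC and MEF have 1 library each, so that the groups compared share fewer than 2 replicate numbers, and these numbers only name libraries.

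The p-values rest on 4 residual degrees of freedom, fewer where a line was left out or clones were averaged, and on 1 cNSC library, whose own spread is not known. Depth limits low values: levels under 0.0929 to 0.138 FPKM rest on 3 fragments or fewer of a 2 kb transcript, and folds below that level were not resolved.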

Other observations

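The lower genes also held cytokines and their receptors beyond the interleukin 6 family, named here after their values were seen. The alarmin gene Il33 was at 22.5 FPKM in cNSC and at 0.841 in pOKSM, 3.86 in pBKSM, 0.0283 in mcBKSM clone 1, 3.33 in DTA and listed at 0 in mcBKSM clone 3. Tslp, a cytokine of barrier tissues, was at 28.7 FPKM in cNSC and at 0.330 in pOKSM, 2.24 in pBKSM, 0.487 in mcBKSM clone 1, 0.153 in mcBKSM clone 3 and listed at 0 in DTA (adjusted p = 0.0530). Spp1 (osteopontin) was at 87.6 FPKM in cNSC, from 2.07 in mcBKSM clone 3 to 8.36 in DTA in the lines and 407 in MEF. Cx3cl1 (fractalkine) was at 89.7 FPKM in cNSC and from 4.05 in mcBKSM clone 3 to 15.8 in pBKSM, and Cxcl14 at 20.5 and from listed at 0 in mcBKSM clone 1 to 3.42 in DTA. Both chains of the interleukin 1 receptor fell, Il1r1 from 8.59 FPKM to 0.339 ± 0.263 (log2 difference -2.86 ± 0.30, SE, adjusted p = 0.0169) and Il1rap from 54.8 to 9.52 ± 1.95 (log2 difference -2.43 ± 0.29, SE, adjusted p = 0.0263). The call of Il1r1 ended without pOKSM (adjusted p = 0.0971), mcBKSM clone 1 (0.0793) or mcBKSM clone 3 (0.0834), and with a pseudocount of 0.1 (0.172) or both clones averaged (0.0779). That of Il1rap ended without pOKSM (adjusted p = 0.117), mcBKSM clone 1 (0.0936) or mcBKSM clone 3 (0.0947), and with both clones averaged (0.0936).

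Barhl2 and Mab21l1, both singled out after their values were known, were near 0 in every line. Barhl2, a homeobox gene of the diencephalon and retina, was at 7.69 FPKM in cNSC and at 0.0626 in mcBKSM clone 1, 0.0344 in mcBKSM clone 3 and listed at 0 in pOKSM, pBKSM and DTA (log2 difference -3.09 ± 0.11, SE, adjusted p = 0.000414). Mab21l1, a gene of eye and midbrain development, was at 8.14 FPKM in cNSC and at 0.165 in pBKSM and listed at 0 in pOKSM, mcBKSM clone 1, mcBKSM clone 3 and DTA (log2 difference -3.15 ± 0.14, SE, adjusted p = 0.000974). Both calls held in every alternative checked for them, which did not include the fits without MEF or without a filter. MEF was at 0.422 FPKM for Mab21l1 and listed at 0 for Barhl2. The nuclear receptor genes Rarb (7.43 FPKM in cNSC, from 0.632 in pOKSM to 2.399 in DTA) and Rorb (7.03, from 1.201 in mcBKSM clone 1 to 2.17 in DTA) were chosen without passing the test. Here too DTA was the line with the most.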
